A study of Arabidopsis thaliana with 6 samples.

Results

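OVATE family proteins (OFPs) are plant-specific transcriptional repressors, and the peaks of the transcription factor JAGGED (JAG) at 7 of their genes are described here: OFP1 (AT5G01840), OFP2 (AT2G30400), OFP3 (AT5G58360), OFP4 (AT1G06920), OFP5 (AT4G18830), OFP12 (AT1G05420) and OFP16 (AT2G32100). A peak was assigned to a gene when its summit, the position of its maximum, lay in the gene or within 3000 bp of it. This rule took 19 of the 6890 peaks in 3 lists, 6 from list 1, 7 from list 2 and 6 from list 3. They fell at 5 of the 7 genes, and OFP2 and OFP3 had none.

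JAG is a C2H2 zinc finger protein that promotes growth of petals, stamens and other lateral organs of Arabidopsis thaliana. Chromatin was taken from inflorescence tips with unopened buds, and DNA bound by JAG was precipitated through a green fluorescent protein (GFP) tag. There were 3 JAG-GFP samples, jag-2 mutants that carry JAG:JAG-GFP, a genomic JAG fusion under its own promoter, and 3 wild-type L-er samples without tag or mutation, which served as the antibody background. One peak list per replicate number was used, called list 1, 2 and 3 here, and the labels do not say whether replicates came from separate sets of plants. Peak lists hold no expression values, so the tissue was not checked against marker genes.

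OFPs carry a conserved C-terminal OVATE domain, named after the tomato fruit shape gene OVATE. Several of them bind TALE homeodomain proteins, the KNOX and BELL classes of transcription factor that control meristems and organ form. OFP1 represses the gibberellin biosynthesis gene GA20OX1 and reduces cell elongation when overexpressed, OFP1 and OFP4 interact with KNAT7 in secondary wall formation, and OFP5 restrains the activity of BLH1 and KNAT3 in the embryo sac.

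Each peak has a score deposited by the authors, used here as their own value to describe and rank peaks within a list. Its scale is not stated, and no error can be put on a single score, so the 3 lists are given side by side. The lists held 2620, 2143 and 2127 peaks, with lowest scores of 1.86, 1.89 and 1.87 and medians of 2.04, 2.08 and 2.12. The highest scores of lists 1 and 2, 14.54 and 16.96, lay over JAG itself. These peaks ran from 25682653 to 25692819 and from 25680784 to 25692817, against median widths of 1032.5 bp and 982 bp. JAG-GFP plants carry an added genomic JAG copy that wild-type plants lack, so these scores cannot be read as binding alone. List 3 had no chromosome 1 peak past position 23827070, before JAG. None of the 7 genes lies past that position. Peaks of different lists that overlapped by at least 1 bp were merged, and 869 merged regions held a peak of every list.

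All 5 genes with a peak had a region of all 3 lists, so that 5 of 7 had a region and 5 of 7 had a peak of at least 1 list. Over 25681 protein-coding genes, a region of all 3 lists was found at 6.24% and a peak of at least 1 list at 25.9%. The set was chosen by the positions of peaks in these same lists, so the counts were not tested against those shares. The stretch free of other protein-coding genes was summed over both sides of the gene. It had a median of 4168 bp for the 7 genes, against 1883 bp for all 27434 genes with a neighbour on both sides. On the high-coordinate side the sum passed over genes that contain the measured gene. OFP5 thus counted as 6012 bp although AT4G18840 contains it, so the median of the 7 is too high. That of all genes may be too high as well. The part of this stretch in the counts was not tested.

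**Figure D1:**
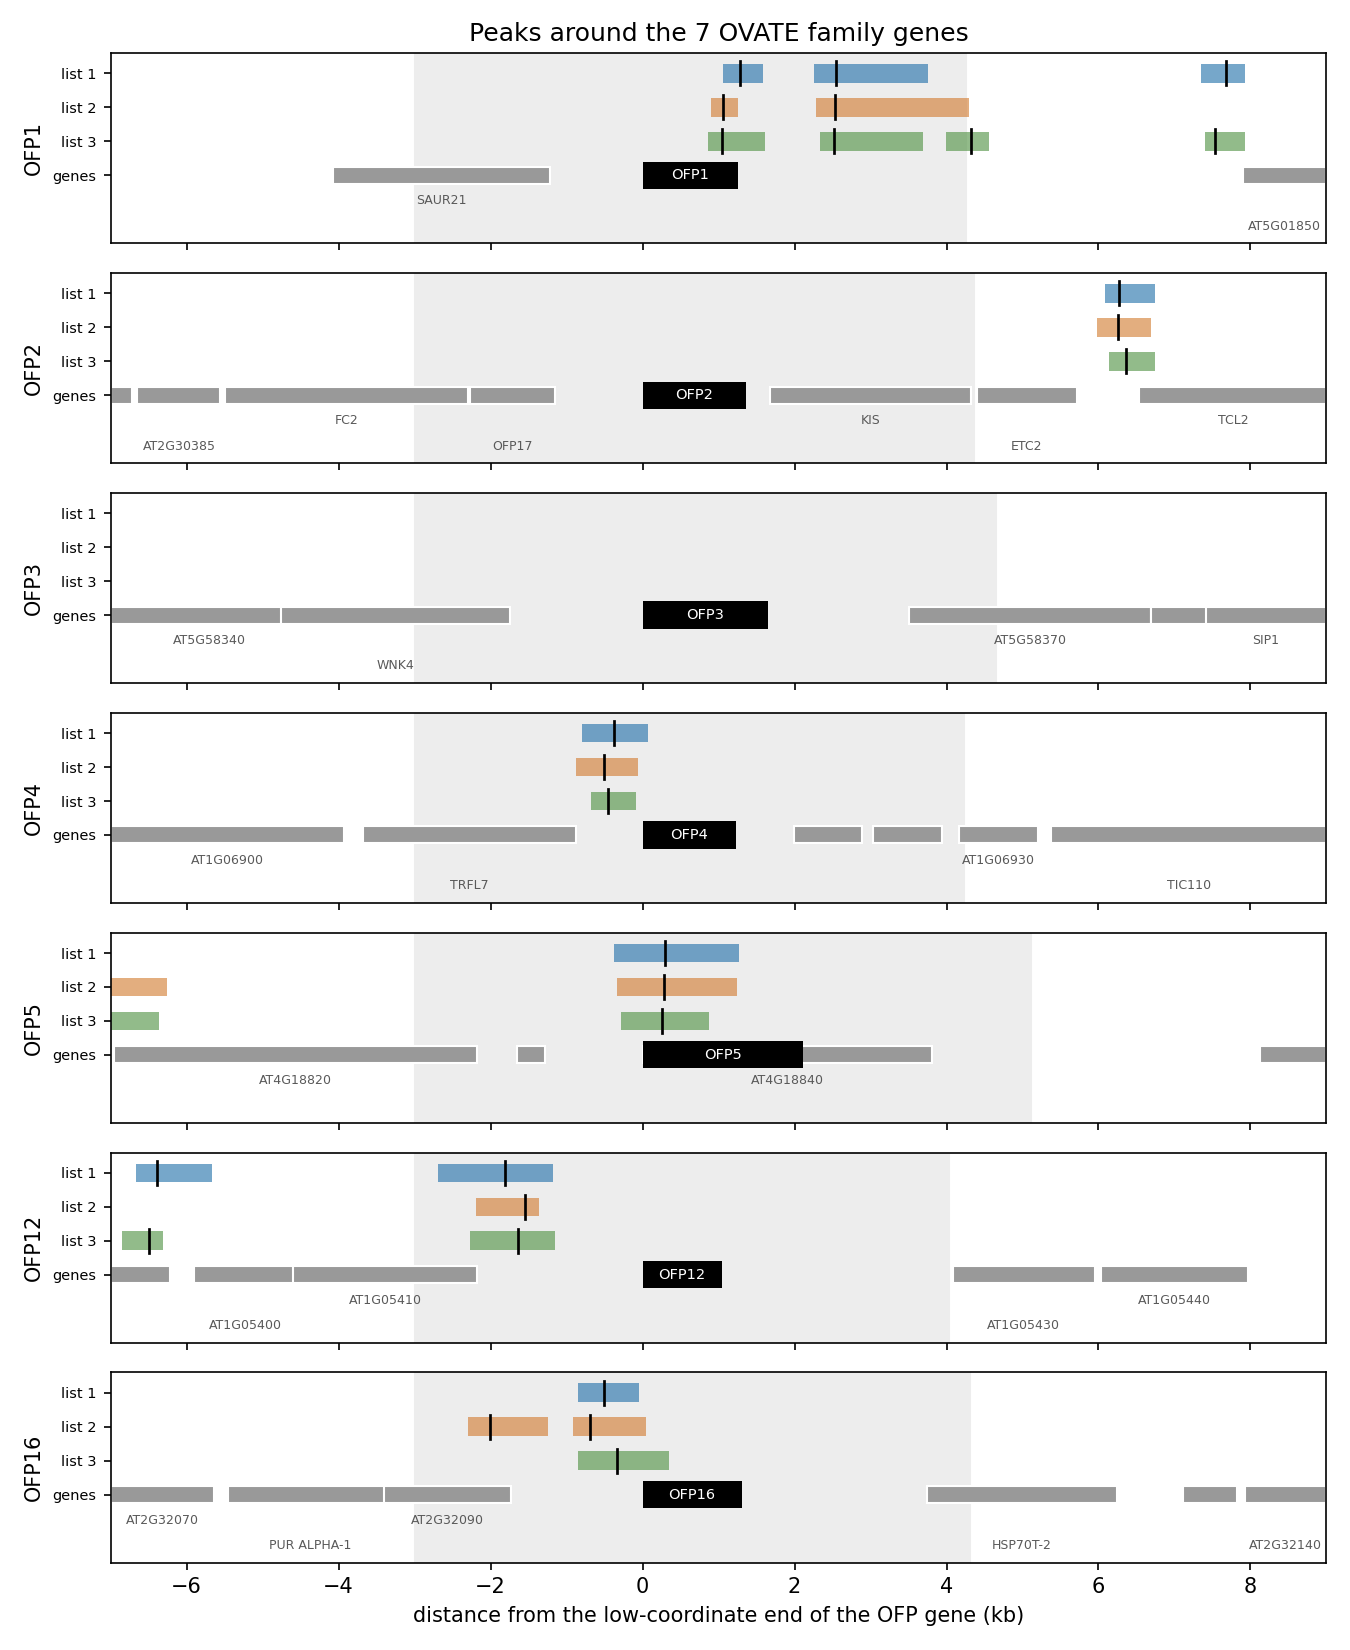
Peaks around the 7 OVATE family genes. The x axis is the distance in kb from the low-coordinate end of the OFP gene; coloured bars are the peaks of lists 1, 2 and 3, black ticks their summits, the black bar the OFP gene, grey bars other protein-coding genes (the shortest unlabelled), and the shaded area the gene with 3000 bp on each side. In the shaded areas, OFP1 has 2 groups with a peak of every list, and OFP4, OFP5, OFP12 and OFP16 have 1 such group each. A further list 3 peak reaches into the shaded area of OFP1, and that of OFP16 holds a further list 2 peak. The shaded areas of OFP2 and OFP3 are empty.

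OFP1, the repressor of GA20OX1, was the one gene of the 7 with 2 regions of all 3 lists. At least 2 such regions were found at 0.409% of all tested genes. The higher region (chromosome 5, 326689 to 328981) lay outside the gene, with its summit 1277 bp from the gene's high-coordinate end. Its peak scored 2.85 in list 1, 3.07 in list 2 and 3.55 in list 3. These scores ranked 141st of 2620, 119th of 2143 and 105th of 2127, so the region stood at a like height in each list. Its 3 summits lay within 33 bp of each other, the closest agreement of the OFP regions. The median summit spread was 184.5 bp at the 6 OFP regions, wider than the 118 bp over all 869. The bases common to the peaks of all 3 lists ran from 326762 to 328123.

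The lower OFP1 region (chromosome 5, 325292 to 326033) lay over the high-coordinate end of the gene. It scored 1.93 in list 1, 1.94 in list 2 and 2.23 in list 3, near the lowest scores of lists 1 and 2. Summits of lists 2 and 3 fell in the gene body at 325482 and 325476, and that of list 1 at 325712, 34 bp outside it. OFP1 was the nearest protein-coding gene to both regions. The gene AT5G01830 (SAUR21 in the gene table) lay on its other side, 2269 bp from the lower summit, and on the side of the higher region the next protein-coding gene began 6651 bp away. A long non-coding RNA gene, AT5G00805, lay 1250 bp from the higher summit, slightly nearer than OFP1.

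OFP4, a partner of KNAT7, had the highest single score of the 19 peaks. Its region (chromosome 1, 2123802 to 2124748) scored 2.70 in list 1, 3.61 in list 2 and 3.36 in list 3. The ranks were 206th, 48th and 133rd, so list 2 placed it much higher than list 1. The summits lay 373 bp, 506 bp and 460 bp from the gene in the same order, in a space of 874 bp between OFP4 and TRFL7, which encodes a telomere repeat-binding factor-like protein. TRFL7 was slightly nearer than OFP4 to the median summit, at 415 bp against 460 bp. In list 1 alone OFP4 was nearer, so the lists do not assign this region to either gene.

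OFP5, the partner of BLH1 and KNAT3, had its region (chromosome 4, 10336188 to 10337840) over the gene itself. The peak scored 1.88 in list 1, 2.61 in list 2 and 2.90 in list 3. It ranked 2228th of 2620 in list 1, near the bottom of that list, but 312th and 249th in lists 2 and 3. No other OFP region differed as much in place between lists. The 3 summits lay within 38 bp of each other. The annotated span of another protein-coding gene, AT4G18840, contains that of OFP5, so the region lies in both genes, and the long non-coding RNA gene AT4G06850 lay 198 bp from the summit.

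**Figure D2:**
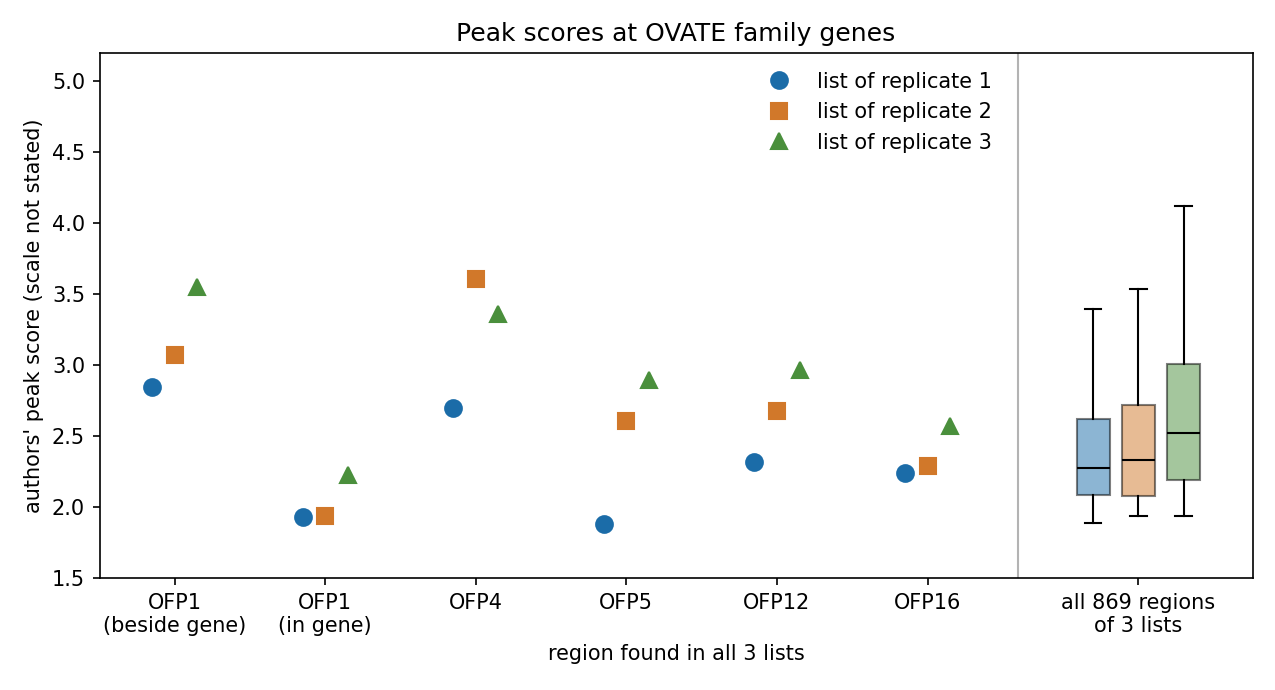
Authors' peak score in each list at the 6 OFP regions found in all 3 lists (points), beside all 869 such regions (boxes, median and quartiles, whiskers from the 5th to the 95th percentile). The list 1 score is the lowest at all 6 OFP regions; the OFP1 region beside the gene and the OFP4 region are highest, and OFP5 shows the widest spread, 1.88 to 2.90.

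OFP12 had the region whose summit lay farthest from its gene (chromosome 1, 1587278 to 1588824). Its summits lay between OFP12 and AT1G05410, and its peaks reached into AT1G05410. It scored 2.32 in list 1, 2.68 in list 2 and 2.97 in list 3, with ranks of 524th, 259th and 232nd. The summits lay 1817 bp, 1548 bp and 1642 bp from OFP12. In every list AT1G05410 was nearer, at 362 bp, 631 bp and 537 bp.

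OFP16 had its region immediately beside and partly over the gene (chromosome 2, 13646777 to 13648048). Its peaks scored 2.24 in list 1, 2.29 in list 2 and 2.57 in list 3, ranking 711th, 602nd and 438th. The summits were spread over 361 bp, the widest of the OFP regions, at 508 bp, 692 bp and 331 bp from the gene. OFP16 was the nearest protein-coding gene in each list. A further peak of list 2 (13645400 to 13646451, score 2.63) was not found in lists 1 and 3; its summit lay in AT2G32090, 2009 bp from OFP16.

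The 6 regions did not share a place relative to the genes. Their summits fell in an OFP gene in 2 cases (OFP1 and OFP5), outside genes but within 1000 bp of one in 3 (OFP4, OFP12 and OFP16), and farther away in 1 (OFP1). Among all 869 regions, 26.5% lay in a gene, 47.3% within 1000 bp and 26.2% beyond. Of the 7 genes, 3 were the nearest protein-coding gene to a region (OFP1, OFP16 and, tied with AT4G18840, OFP5), against 3.14% of all tested genes that were nearest to a region within 3000 bp. The gene table used has no strand, so whether a region is upstream or downstream of the gene was not analysed here.

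The ranks of the 6 regions were spread widely among recurrent regions, and their scores stayed well below those of the region that ranked 1st. Their highest scores were 2.85, 3.61 and 3.55 in lists 1, 2 and 3, against 7.84, 7.42 and 8.77 at the region that ranked 1st. Their medians were 2.28, 2.65 and 2.94 in lists 1, 2 and 3, against 2.28, 2.33 and 2.52 over all 869. Ranked by the mean of the within-list percentiles, the OFP1 region beside the gene came 84th of 869 and OFP4 88th, followed by OFP12 at 237th, OFP16 at 390th, OFP5 at 560th and the region in OFP1 at 807th. List 1 gave the lowest score at 6 of 6 OFP regions and at 46.5% of all 869, and list 3 the highest at 5 of 6 and at 55.9%. By percentile within the list, which sets aside the different score ranges, list 1 was lowest at 3 of 6 and at 30.1% of all. Median peak widths at the OFP regions were 1184.5 bp, 901 bp and 1142 bp, against 1228 bp, 1092 bp and 1163 bp over all 869.

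**Figure D3:**
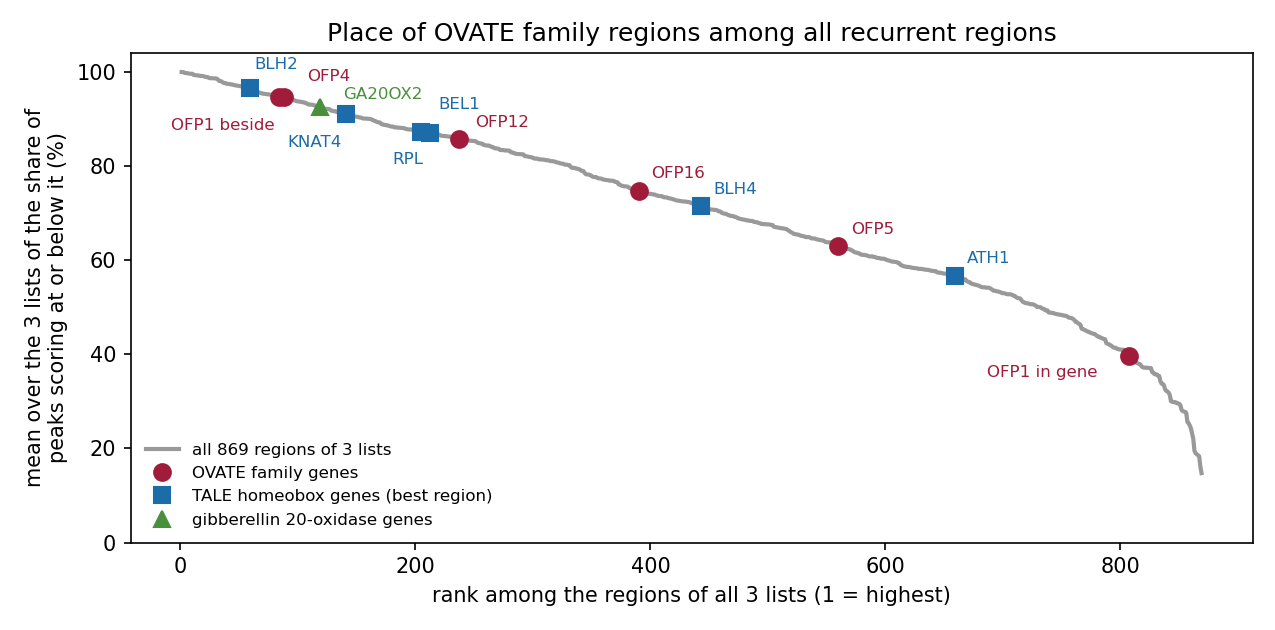
The 869 regions of all 3 lists by rank (x axis) and by the mean over lists of the percentage of peaks scoring at or below the region's peak (y axis). OFP1 beside the gene and OFP4 lie close together at ranks 84 and 88, and the region in OFP1 lies at 807; squares and the triangle mark the regions of TALE homeobox and gibberellin 20-oxidase genes.

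OFP2 and OFP3 had no peak by the same rule in any list. The nearest summits to OFP2 were 4914 bp, 4899 bp and 4996 bp away in lists 1, 2 and 3, beyond KIS and ETC2 and beside TCL2. For OFP3 they were 65314 bp, 11979 bp and 11944 bp away. Read counts were not analysed here, so the absence of a peak gives no upper limit on binding. Just inside the limit of 3000 bp, the farthest assigned summit was that of the list 2 peak at 2009 bp from OFP16. Just outside it lay a list 3 peak 3073 bp from OFP1 (score 2.10), which touches the list 2 peak of the higher OFP1 region and was merged with it.

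The rest of the family was examined by the same rule. In the gene table, 18 genes carry an OFP name, and of the other 11, 10 could have a region of all 3 lists; OFP14 lies past the last chromosome 1 peak of list 3. None of these 10 had such a region, against 6.24% of all tested genes, and 1, OFP13 (AT5G04820), had any peak within 3000 bp, against 25.9%. The 7 genes were chosen from peaks in these lists, so the counts of the remaining genes depend on that choice and were not tested. Over the whole family, 5 of the 17 that could have such a region had one, and 6 of 18 had any peak. OFP13 had a list 2 peak with a summit 1461 bp away (score 1.89) and a list 3 peak on its other side 830 bp away (score 2.35), which do not overlap. OFP15 had its nearest summit at 3581 bp in list 1, OFP11 at 6916 bp in list 1 and OFP17 at 7418 bp in list 2. For the other 7, OFP14 included, no summit lay within 10000 bp. OFP17 is the neighbour of OFP2, so these genes share the same nearest peaks.

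**Figure D4:**
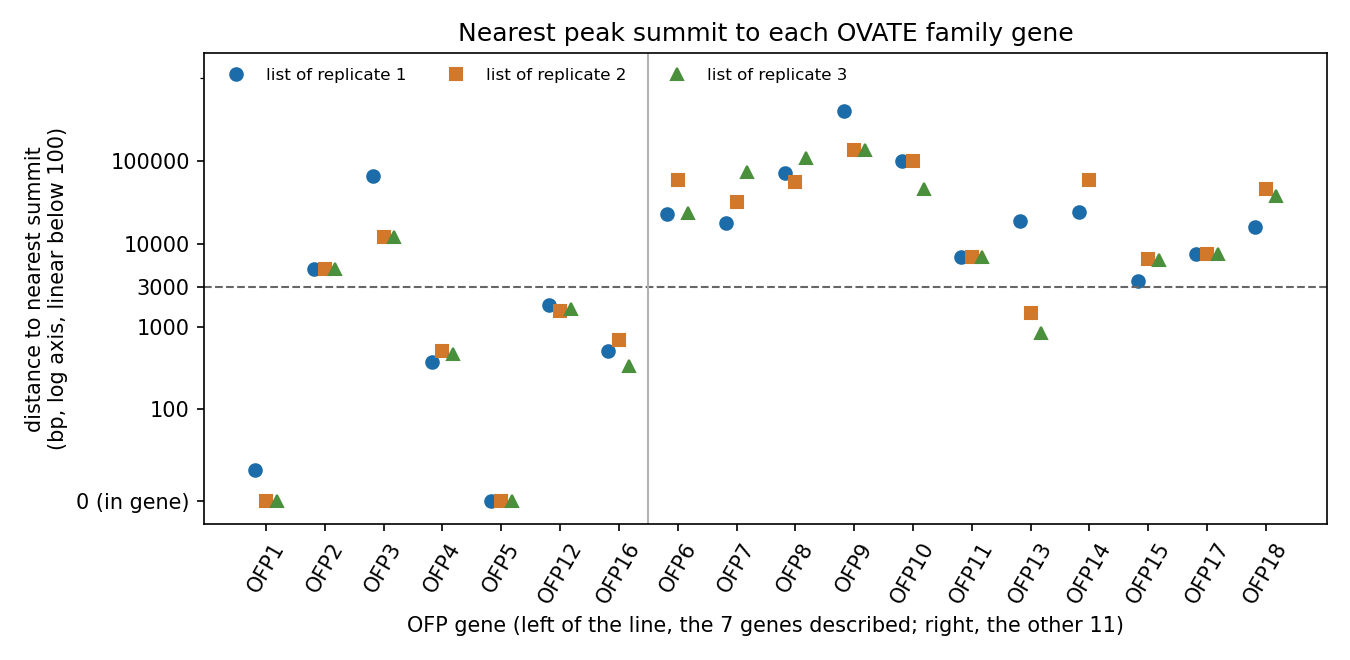
Distance in bp from each of the 18 OFP genes to the nearest summit in each list, on a log axis that is linear below 100 (0 means in the gene); the dashed line is 3000 bp. OFP1, OFP4, OFP5, OFP12 and OFP16 lie below the line in all 3 lists and OFP13 in lists 2 and 3; OFP14 has no point for list 3, which ends before it.

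TALE homeobox genes encode the class of protein that several OFPs bind. Of the 18 such genes that could be examined, 6 had a region of all 3 lists, against 6.24% of all tested genes. These were the KNOX gene KNAT4 and the BELL genes BEL1, BLH2 (also SAW1), BLH4 (SAW2), RPL (PNY) and ATH1. BLH2, which restrains growth of leaf margins, scored 3.72, 3.32 and 3.45 in lists 1, 2 and 3 over its gene body (chromosome 4, 17370688 to 17373660) and ranked 59th, above every OFP region. BEL1, an ovule identity gene with 2 regions, scored 2.91, 2.79 and 2.50 at the better one (chromosome 5, 16581455 to 16583958). RPL, which acts in meristems and the fruit replum, scored 2.26, 2.72 and 3.75 (chromosome 5, 396902 to 398342), and KNAT4 2.51, 2.97 and 3.25 (chromosome 5, 3507914 to 3510412). The remaining TALE regions ranked lower. BLH4 scored 2.09, 2.18 and 3.05 (ranked 443rd), and ATH1 2.27, 1.94 and 2.30 (ranked 659th). A further 5 TALE genes had peaks without such a region and 7 had none, among them STM and KNAT1. A peak of at least 1 list was thus found at 11 of 18, against 25.9% of all tested genes. The TALE list was drawn up with earlier results of these data known, so its counts were not tested against those shares.

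None of KNAT7, KNAT3 and BLH1, the partners named above, nor GA20OX1 had a region of all 3 lists, which is also the case for most genes (6.24% have one). They were picked for their known link to an OFP, outside the naming rule and after their values were seen. Other TALE partners of OFPs were not listed apart. KNAT7 had a peak 1628 bp away in list 1 (score 2.37) and in list 3 (score 2.49), both with a summit at position 23335539 of chromosome 1, and none in list 2. BLH1 had a single peak, of list 2, in its gene body (score 2.12), and KNAT3 had none. GA20OX1, the gene OFP1 represses, had 2 peaks of list 3 within 3000 bp, with scores of 1.88 and 1.90. These ranked 2064th and 1828th of 2127, near the lowest list 3 score of 1.87. Of 5 gibberellin 20-oxidase genes, which act late in the synthesis of active gibberellin, 1 had a region of all 3 lists, against 6.24% of all tested genes, and 3 had a peak of at least 1 list, against 25.9%. The region was that of GA20OX2, 463 bp from the summit, with scores of 2.96, 2.58 and 3.75 (chromosome 5, 21054130 to 21055026). This gene list too was drawn up with earlier results of these data known, and its counts were not tested.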

How the data were processed

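The files were 3 peak lists, 1 per replicate number, with a start, end, width, position of the maximum and score per peak, per the file headers. The scores were deposited by the authors. For the peak caller, its threshold, the scale of the score and the wild-type sample behind each list, nothing was given in the sources used here. Per the submitters' processing notes, CASAVA 1.8 was used and the build is TAIR10, and printed coordinates are those of the lists. Read depth is unknown, so no interval or detection limit was computed.

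Peaks overlapping by at least 1 bp were merged; for a region's summit, the best-scoring peak of every list was taken and their maxima reduced to a median. Ranks count tied scores alike. Gene names, spans and neighbours came from the RefSeq table of assembly TAIR10.1, taken as placed like TAIR10; distances to genes rest on this. Of 27444 nuclear protein-coding genes, 25681 were tested, those past the last chromosome 1 peak of list 3 being left out. Python 3.11.15, pandas 2.3.3 and NumPy 2.4.6 were used, and merging was tested on simulated lists.

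The 7 genes, the partner lists and the rules were chosen with earlier results of these data known. Genes named were the 7, other OFP genes within 10000 bp of a summit, TALE and gibberellin 20-oxidase genes with a region of all 3 lists, neighbours within 3000 bp, and the 2 regions with scores closest to each OFP region. Of the neighbours, AT1G05400, PUR ALPHA-1, AT1G06923, AT4G18820 and AT4G18823 were within 3000 bp but were not described above. JAG, OFP14, STM, KNAT1, KNAT3, KNAT7, BLH1, GA20OX1 and the genes beyond 3000 bp were named outside this rule, after their values were seen. No statistical test was made. Motifs, promoters and proteins, which had been planned, were not analysed here.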

Additional observations from a re-analysis of the deposited data

How the results depend on the processing

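Of 45 recomputed counts and shares, 37 stayed within 1.5 times the reported value and 8 did not. With a window of 500 bp in place of 3000 bp, 3 of the 7 genes had a region of all 3 lists (OFP1, OFP4 and OFP5); with 1000 bp 4 did, and with 5000 bp 6 did, OFP2 being added. The 19 peaks became 12 at 1000 bp and 9 at 500 bp. The share of all genes with a region, 6.24%, became 3.21% at 1000 bp, 2.23% at 500 bp, 3.64% with the highest-scoring 50% of each list and 12.0% with 2 of 3 lists required. With the highest-scoring 50%, 4 of the 7 genes had a region, OFP5 being lost and OFP1 keeping 1 of 2. Leaving out each list in turn gave 5 genes with a region in each case. This count could hardly differ and is no check. A region of all 3 lists also holds peaks of any 2, and OFP2 and OFP3 had no peak within 3000 bp in any list. Leaving lists out also gave 12 to 13 peaks (12 without list 2, 13 without list 1 or 3, each from fewer lists). The OFP genes nearest to a region were 3 without list 1 or 3 and 4 without list 2. They were 2 at 500 bp and 2 with the highest-scoring 50% of each list. The score limits precision, since its scale and the reads behind it are not known. No paired analysis was possible because the lists give no values per sample and no result comes from a test.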

Other observations

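The summits nearest to OFP2 belong to a region of all 3 lists and lie between ETC2 and TCL2, which encode small MYB-type repressors of trichome formation; its peaks also overlap TCL2. They scored 1.98, 2.33 and 2.90 in lists 1, 2 and 3, with TCL2 nearest at 263 bp, 278 bp and 181 bp. Beyond the regions of OFP1, a pair of peaks lay near AT5G01850, at 219 bp in list 1 (score 1.90) and at 368 bp in list 3 (score 2.23), and list 2 had none there.

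The regions with scores most like those of each OFP region were picked by the distance between their 3 log2 scores, which over 3 lists is a description of height only. The OFP1 region beside the gene was closest to regions nearest to AT1G19840 (distance 0.07; scores 2.85, 3.02 and 3.38) and HA2, a plasma membrane proton pump gene (0.09; 2.97, 3.13 and 3.39). For the region in OFP1 they were those at AT5G25210 (0.03) and AT4G18395 (0.05), and for OFP4 those at AT3G21320 (0.06) and AT1G05370 (0.13). OFP5, with its low list 1 score, was closest to AT4G24410 (0.08; 1.98, 2.59 and 2.96) and AT3G51950 (0.08; 1.94, 2.53 and 3.01). OFP12 was closest to CPD, which encodes a brassinosteroid biosynthesis enzyme (0.07; 2.37, 2.78 and 3.05), and to AT2G18970 (0.09), and OFP16 to MEE69 (0.03) and AT2G18240 (0.04).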
